A study of Mus musculus with 2 samples.

Results

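The immediate-early genes described here are Fos, Fosb, Jun, Junb, Egr1, Egr2, Nr4a1, Ier2, Dusp1 and Klf2, 10 of the 19938 genes that could be named on the array. They were taken by name, as AP-1, EGR, NR4A and KLF transcription factor genes together with Ier2 and Dusp1. Each of the 10 had 1 probe set carrying its symbol alone, so no choice among probe sets was needed. The cells were plasmacytoid dendritic cells (pDCs), dendritic cells known for making large amounts of type I interferon when they sense nucleic acids. They came from the bone marrow of fetal liver chimeras, mice that received hematopoietic cells of fetal liver, and were sorted 2 months later for BST2 and B220 and against CD11b. The first group received Runx2-/- fetal liver, which lacks the Runt family transcription factor Runx2, and is called Runx2-deficient. The second group received wild-type fetal liver. The groups share the chimera design, the sort and 250 ng of starting RNA, and each was hybridised to 1 Affymetrix Mouse Gene 1.0 ST array. The labels do not give the number of chimeras behind each array, the strain or age of the mice, or which blood cells of the hosts remained. With 1 array per genotype there is no replicate error, no test and no p-value, and every difference below describes these 2 arrays.

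Immediate-early genes are transcribed within minutes of a stimulus, without new protein synthesis, by factors that are already in the cell. MAP kinases, calcium and cyclic AMP signals reach them through serum response factor with its ELK partners, CREB and MEF2. Their RNAs are short-lived, and most of their products are transcription factors or feedback inhibitors. In blood cells they are known to follow antigen receptor, Toll-like receptor and chemokine signals, and also to be induced by tissue handling and sorting. KLF2 differs from the rest in that resting lymphocytes express it and lose it on activation.

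The immediate-early genes did not differ in a common direction. The log2 intensity was higher in the Runx2-deficient sample than in wild-type for 5 genes (Egr1, Dusp1, Ier2, Junb and Jun) and lower for the other 5 (Klf2, Fosb, Nr4a1, Fos and Egr2). Egr1 was 2.02-fold higher, and was the one member at least 2-fold apart. Klf2 was 1.93-fold lower, Fosb 1.72-fold lower and Nr4a1 1.64-fold lower, while Jun, Junb and Egr2 were within 1.08-fold of equal. The 2-fold line fell between Egr1 and Klf2, and this is a thin margin: after quantile normalisation of both arrays Egr1 was at a log2 difference of 0.97 and Klf2 at -1.01, so that Klf2 and not Egr1 passed it. The median log2 difference (Runx2-deficient minus wild-type) of the 10 genes was -0.031, and that of all named genes was -0.033. The median of the absolute log2 differences was 0.50 for the 10 genes and 0.14 for all named genes. For named genes past the brightness filter described below, which 8 of the 10 genes pass, it was 0.18.

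**Figure D1:**
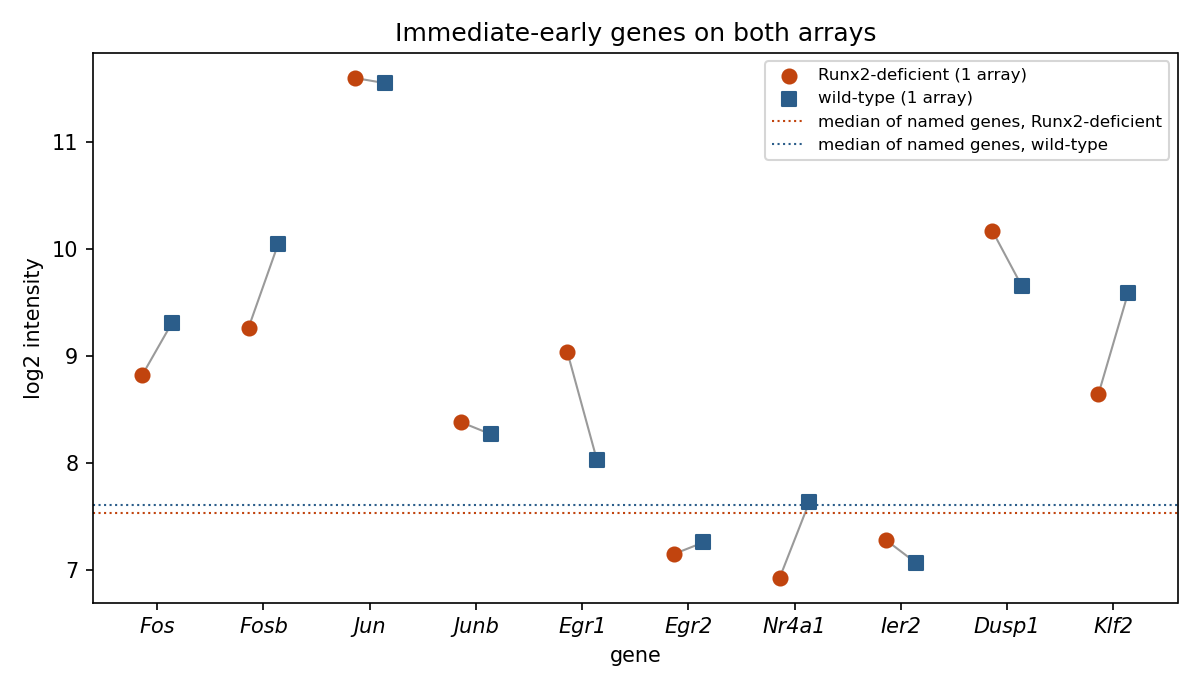
Log2 intensity of the 10 immediate-early genes on the Runx2-deficient array (circles) and the wild-type array (squares), 1 array each, with the median of all named genes on each array as a dotted line. Egr1 and Dusp1 lie visibly higher on the Runx2-deficient array, Klf2, Fosb, Nr4a1 and Fos lower, and Egr2 and Ier2 lie below both medians.

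Of the 10 genes, 8 were at or above the median of named genes (log2 7.54 on the Runx2-deficient array, 7.61 on the wild-type array) on at least 1 array, the brightness filter used here. Among the 10337 named genes past that filter, 0.793% were higher by 2-fold or more in Runx2-deficient pDCs and 1.17% lower by as much, 1.96% in all, and without the filter the share was 1.08%. At 1.5-fold, 1 of the 10 genes was higher and 3 were lower, against 3.02% of filtered genes higher and 3.86% lower, 6.88% in all (3.95% of all named genes). The 10 genes were chosen with earlier results of these arrays known, so their count is a description and not evidence that the family is more variable than other genes. Egr2 and Ier2 stayed below the filter on both arrays, and since the table carries no detection call, it is not known whether these levels exceed background. Nr4a1 passed it through the wild-type array alone.

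The promoters of 6 genes are shown because they belong to the members whose values set the pattern: the 3 that were at least 1.5-fold lower (Klf2, Fosb, Nr4a1), Fos beside its relative Fosb, Dusp1 as a member that was higher, and Jun as the member closest to equal. Each is the 250 bases before the transcription start in RefSeq, build GRCm38, 5′ to 3′ on the gene's strand. Capitals mark every match, on either strand, to a searched motif. These were the CArG box of serum response factor, the MEF2 site, the cAMP response element TGACGTCA and its core TGACG, the AP-1 site TGAGTCA, the EGR site GCGGGGGCG and the Runx sites TGTGGT and TGCGGT. The full cAMP response element contains the core on both strands.
Klf2 (chr8:72318812-72319061, plus strand): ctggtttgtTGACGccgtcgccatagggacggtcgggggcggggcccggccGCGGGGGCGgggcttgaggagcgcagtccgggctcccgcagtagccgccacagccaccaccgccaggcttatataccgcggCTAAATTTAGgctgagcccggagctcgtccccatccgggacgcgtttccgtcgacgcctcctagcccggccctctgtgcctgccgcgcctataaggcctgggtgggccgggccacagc
Fosb (chr7:19310046-19310295, minus strand): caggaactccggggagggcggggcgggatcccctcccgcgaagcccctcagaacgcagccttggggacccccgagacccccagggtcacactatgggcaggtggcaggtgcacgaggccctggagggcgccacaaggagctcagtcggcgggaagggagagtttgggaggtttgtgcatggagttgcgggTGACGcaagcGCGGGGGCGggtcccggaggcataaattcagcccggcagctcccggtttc
Nr4a1 (chr15:101266596-101266845, plus strand): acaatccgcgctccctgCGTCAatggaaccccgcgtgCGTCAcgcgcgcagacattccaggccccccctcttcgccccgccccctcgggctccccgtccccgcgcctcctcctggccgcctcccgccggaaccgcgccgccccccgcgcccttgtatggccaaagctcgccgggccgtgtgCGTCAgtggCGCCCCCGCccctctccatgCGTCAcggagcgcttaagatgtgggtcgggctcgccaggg
Fos (chr12:85473640-85473889, plus strand): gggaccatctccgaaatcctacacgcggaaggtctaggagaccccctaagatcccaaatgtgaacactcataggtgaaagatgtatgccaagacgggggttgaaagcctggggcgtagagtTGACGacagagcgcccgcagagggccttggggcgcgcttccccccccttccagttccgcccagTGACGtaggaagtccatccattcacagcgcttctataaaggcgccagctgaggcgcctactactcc
Dusp1 (chr17:26508473-26508722, minus strand): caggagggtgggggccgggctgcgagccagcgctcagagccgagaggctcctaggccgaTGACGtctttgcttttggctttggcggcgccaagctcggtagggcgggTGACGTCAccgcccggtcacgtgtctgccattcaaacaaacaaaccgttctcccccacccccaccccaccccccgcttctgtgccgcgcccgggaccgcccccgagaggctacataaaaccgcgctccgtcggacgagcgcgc
Jun (chr4:95052223-95052472, minus strand): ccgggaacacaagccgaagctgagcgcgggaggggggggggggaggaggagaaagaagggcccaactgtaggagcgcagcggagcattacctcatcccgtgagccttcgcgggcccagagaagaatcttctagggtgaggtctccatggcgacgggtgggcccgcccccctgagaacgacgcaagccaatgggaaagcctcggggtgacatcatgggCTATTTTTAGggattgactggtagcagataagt

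In these windows the EGR site stood before Klf2, Fosb and Nr4a1, the 3 members with the lowest log2 differences, and before none of the other members with a promoter in the table, which was noticed after the values were seen. That site was in 3 of the 12 member promoters and in 2.57% of all 32851 promoters of the same length. Counted by gene, 468 of the 8322 filtered genes with a promoter hold it in at least 1 promoter. The core TGACG stood before 7 of the 8 member genes found, Jun being the one without it. Counted by promoter, it was in 9 of the 12 member promoters and in 17.8% of all promoters. Counted by gene, 2561 of the 8322 filtered genes with a promoter hold it. The shares of the other motifs below are also by promoter, over genes of all levels. Dusp1 had the full cAMP response element, which 1.55% of promoters hold. The MEF2 site stood before Klf2 and Jun and in 0.508% of promoters. Klf2 is known to be driven by MEF2 factors downstream of the kinase ERK5. The CArG box stood before Egr2, in 4 of its 5 annotated promoters, 3 of which overlap, and in 1.47% of all. The AP-1 site in its searched form TGAGTCA (4.46% of promoters) was before none of the 8 genes, and variant forms were not searched. Of the Runx sites, TGTGGT (14% of promoters) was before none and TGCGGT (5.10%) before Egr2, in 1 of its 5 promoters. These are matches of letters, not bound sites, and sequence beyond the 250 bases was not searched. Egr1 and Ier2 have no promoter in the table.

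Fos and Fosb encode the FOS subunits of AP-1, a leucine zipper dimer that needs a JUN partner to bind DNA stably, and both were lower. Fos was at 454 intensity units in Runx2-deficient pDCs and 637 in wild-type pDCs, a log2 difference of -0.49 (1.40-fold lower). Fosb was at 617 units in Runx2-deficient pDCs and 1063 in wild-type, a log2 difference of -0.79. Of filtered genes, 10.5% were at least as far from equal as Fos and 3.43% as far as Fosb. The remaining FOS genes lay on the same side, with Fosl2 at a log2 difference of -0.46 and Fosl1, below the filter on both arrays, at -0.21. Fosl2 passed the filter through the wild-type array alone. All 4 FOS genes were thus below 0, against 56.7% of all named genes. This held under each of the 4 alternative treatments of the values, although Fosb alone was 1.5-fold apart. Averaging probe sets, 1 of the 4 treatments, could not change these genes, since each has 1 probe set.

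Jun and Junb encode the JUN subunits of AP-1, which can also pair with itself, and both were at nearly the same level on the 2 arrays. Jun was at 3107 units in Runx2-deficient pDCs and 3007 in wild-type, a log2 difference of 0.047. Junb was at 334 units in Runx2-deficient pDCs and 309 in wild-type, a difference of 0.11. Of filtered genes, 85.9% were at least as far from equal as Jun and 66.9% as far as Junb. Jund, the constitutive member of the family, was at -0.43. The BATF factors, which pair with JUN proteins in place of FOS and act with IRF factors in lymphoid and dendritic cells, were likewise close to equal, with Batf at 0.046, Batf2 at 0.14 and Batf3 at 0.0063. The small MAF genes, whose products lack an activation domain, were at -0.12 (Mafk), -0.30 (Mafg) and -0.25 (Maff, below the filter). Across the 16 measured AP-1 family genes, 10 were below 0, 0 were 2-fold apart and the median was -0.18. Of all named genes 56.7% were below 0, a share close to that count.

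**Figure D2:**
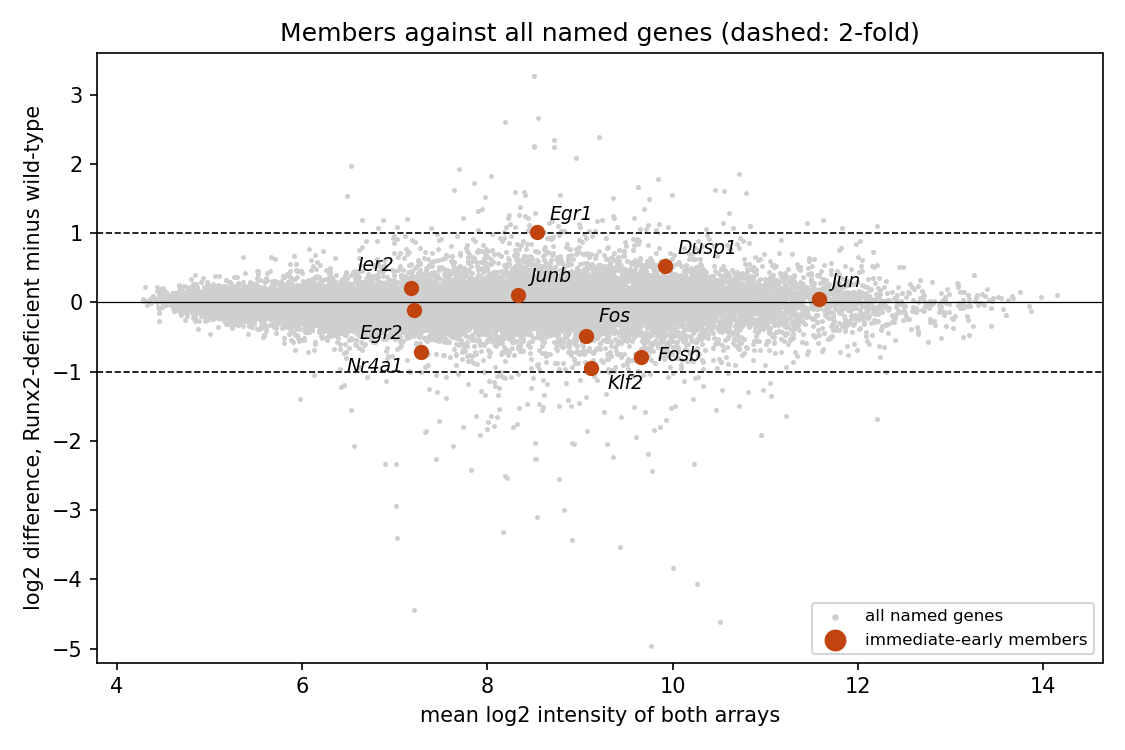
Log2 difference (Runx2-deficient minus wild-type) against the mean log2 intensity of both arrays for all 19938 named genes (grey) and the 10 immediate-early genes (coloured and named). Egr1 sits on the upper 2-fold line and Klf2 just inside the lower one, and Jun lies beside the zero line with a difference of 0.047.

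Egr1 and Egr2 encode zinc finger factors (also called Krox24 and Krox20) that bind the GC-rich EGR site, and of this pair Egr1 alone stood away from equal. Egr1 was at 527 units in Runx2-deficient pDCs and 261 in wild-type, a log2 difference of 1.01, and 1.89% of filtered genes were at least as far from equal. Egr2 was at 142 units in Runx2-deficient pDCs and 153 in wild-type, a difference of -0.11 at a level below the filter. The gap between the log2 differences of the pair was 1.12. Egr3 was at -0.27 and Egr4, below the filter, at -0.22. Nab1 and Nab2 encode corepressors that bind EGR proteins, and Nab2 is itself known as an EGR target. Nab1 differed by 0.16 and Nab2 by -0.12. Of these 6 genes, Egr1 was the one at least 1.5-fold apart.

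Nr4a1 encodes NUR77, an orphan nuclear receptor known as a rapid readout of antigen receptor signalling in lymphocytes. It was at 122 units in Runx2-deficient pDCs and 199.8 in wild-type, a log2 difference of -0.71. The Runx2-deficient value lay below the filter level of that array. The related receptors Nr4a2 and Nr4a3 were below the filter on both arrays, at differences of -0.13 and -0.014. The sign of Nr4a3 turned under at least 1 alternative, so the NR4A genes had 2 or 3 of 3 below 0.

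Ier2 encodes a small, short-lived nuclear protein. It was at 156 units in Runx2-deficient pDCs and 135 in wild-type, a log2 difference of 0.21 below the filter on both arrays. Its relatives went the other way, with Ier3 (below the filter) at -0.39, Ier5l at -0.15 and Ier5 at -0.11. None of the 4 was 1.5-fold apart.

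Dusp1 encodes a nuclear phosphatase that switches off p38, JNK and ERK, the MAP kinases whose signals induce it. It was at 1156 units in Runx2-deficient pDCs and 806 in wild-type, a log2 difference of 0.52 (1.44-fold higher), and 9.23% of filtered genes were at least as far from equal. Among the 10 MAP kinase phosphatase genes measured, 5 were above 0 and 5 below. Dusp9 was the one 2-fold apart, at 238 units in Runx2-deficient pDCs and 975 in wild-type, which is 4.09-fold lower. Grouped by textbook class, a grouping made after the values were seen, the 3 cytoplasmic ERK-selective genes were all lower. Dusp7 was at -0.58, Dusp6 at -0.56 and Dusp9 at -2.03, and Dusp9 alone of these 3 was 1.5-fold apart. Of all named genes, 56.7% were below 0. Dusp5, a nuclear phosphatase that also acts on ERK, was at -0.82. The other inducible nuclear genes, Dusp2 and Dusp4 (below the filter), were at 0.17 and 0.13. The genes selective for JNK and p38 were at 0.10 (Dusp10), 0.13 (Dusp16) and -0.28 (Dusp8, -0.17 when its 2 probe sets were averaged). Dusp8 passed the filter through the wild-type array alone. Dusp1 was thus on the other side of equal from the ERK-selective Dusp5, Dusp6, Dusp7 and Dusp9. These signs held under the 4 alternatives, of which averaging could not change these genes, since each has 1 probe set.

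**Figure D3:**
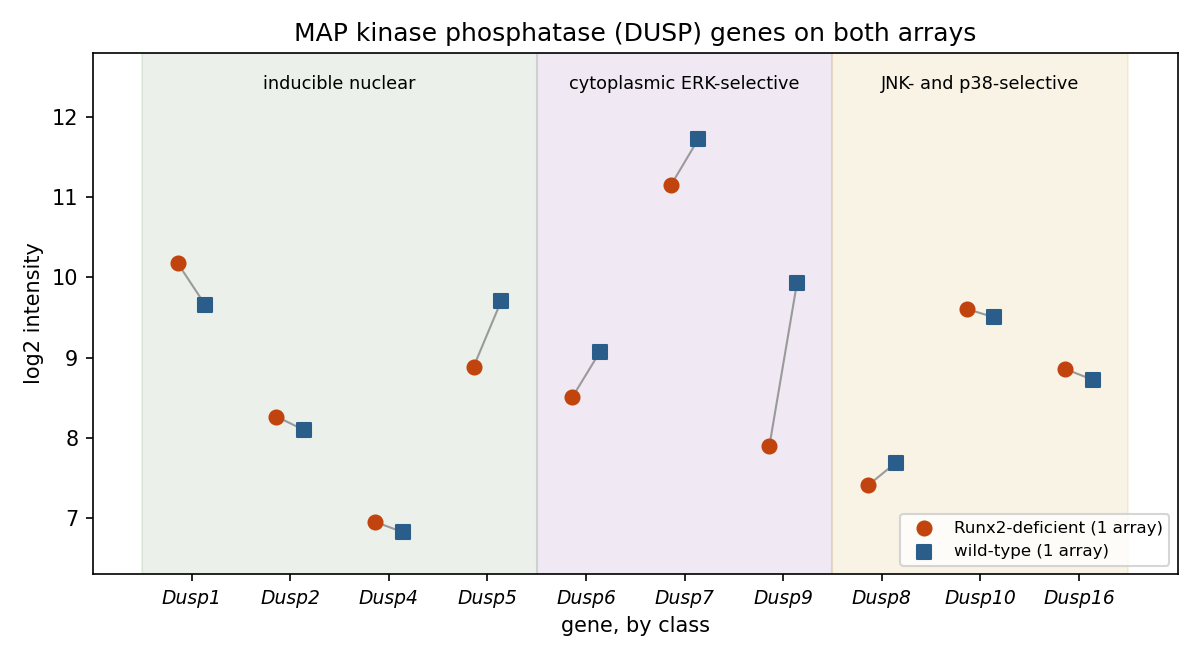
Log2 intensity of the 10 MAP kinase phosphatase genes on the Runx2-deficient array (circles) and the wild-type array (squares), 1 array each, shaded by class. Dusp5, Dusp6, Dusp7 and Dusp9 lie lower on the Runx2-deficient array, Dusp9 by 2.03, and Dusp1 lies higher by 0.52.

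Klf2 encodes a zinc finger factor that keeps lymphocytes quiescent and sets their trafficking, and it had the lowest log2 difference of the 10 genes. It was at 401 units in Runx2-deficient pDCs and 774 in wild-type, a difference of -0.95, and 2.20% of filtered genes were at least as far from equal. The gap between the log2 differences of Egr1 and Klf2, the extremes of the set, was 1.96. Of the 17 KLF genes, 13 were below 0, against 56.7% of all named genes, and 10 after median centring, against 41.8%. Klf2 was the one KLF gene 1.5-fold apart. Klf3 followed at -0.43 and Klf14 at -0.32, while Klf10, a gene induced by TGF-beta, was at 0.56 and Klf6, itself an immediate-early gene, at -0.18. Klf4, which monocytes and dendritic cells also use, was at -0.20. The 4 measured genes known as KLF2 targets were all below 0. Itgb7, the beta-7 integrin chain of lymphocyte homing, was at 449.6 units in Runx2-deficient pDCs and 819.9 in wild-type, a difference of -0.87. S1pr1, the receptor for marrow and lymph node exit, was below the filter on both arrays and differed by -0.29. Thbd and Nos3, known as KLF2 targets from endothelium, differed by -0.44 and -0.41, Thbd below the filter on both arrays. Itgb7 was the one of the 4 at least 1.5-fold apart.

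**Figure D4:**
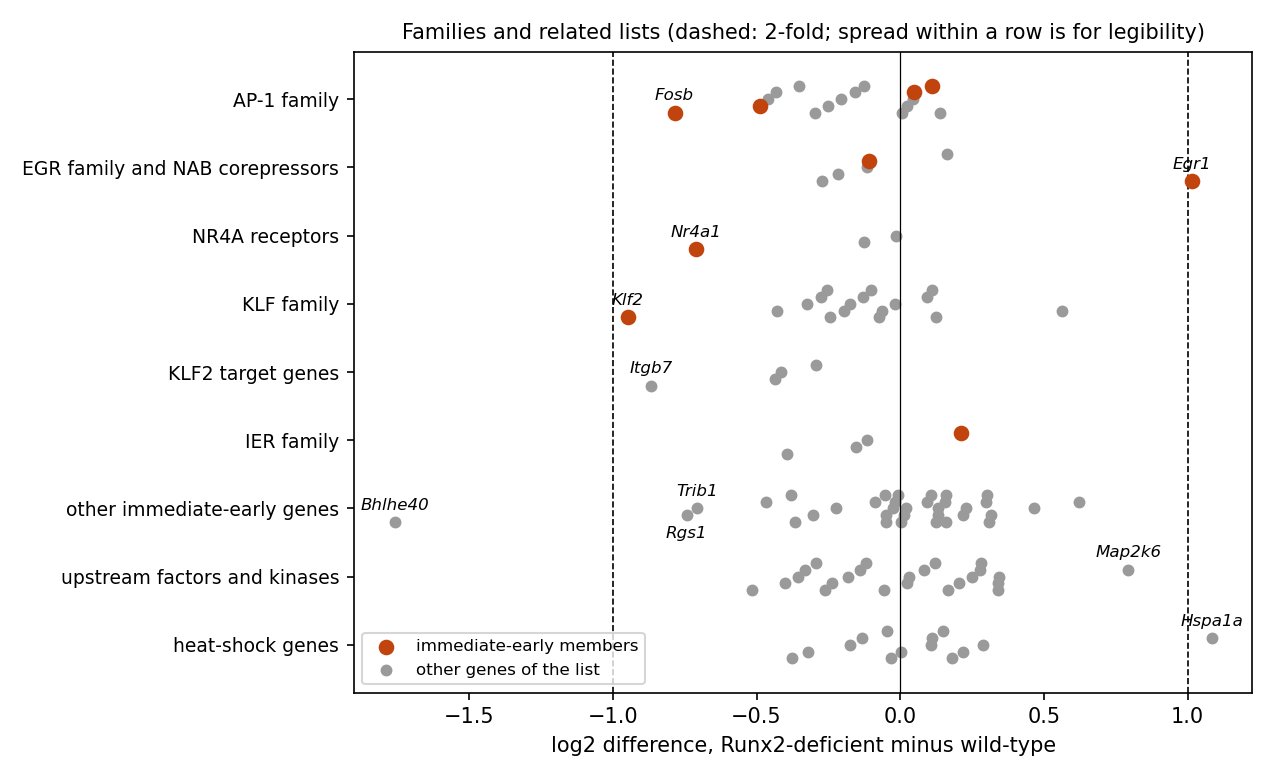
Log2 difference (Runx2-deficient minus wild-type) of every measured gene in the families of the members, other than the phosphatases, and in related lists, with members coloured and genes beyond 0.7 named. The members Klf2, Fosb, Nr4a1 and Egr1 are each the outermost plotted gene of their family on their side.

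Outside these families, 34 further genes known to respond early to signals were measured, 19 above 0 and 15 below, with a median of 0.016. The number below 0 depended on the scaling, with 9 after median centring and 17 after quantile normalisation. Bhlhe40, a helix-loop-helix repressor, was the one 2-fold apart, at 174 units in Runx2-deficient pDCs and 589 in wild-type, which is 3.38-fold lower, and it passed the filter through the wild-type array alone. Rgs1, a brake on chemokine receptor signalling, differed by -0.74, the pseudokinase gene Trib1 by -0.71 and Myc, below the filter, by -0.47. On the other side were the chemokine receptor gene Cxcr4 at 0.62, Cited2 at 0.46 and the NF-kappaB inhibitor gene Nfkbia at 0.32. The other 27 genes lay between the values of Myc and Nfkbia. Over the 46 measured relatives of the members in the 6 families, Dusp9 and Dusp5 were 1.5-fold apart. That is 2 of the 31 relatives past the filter (6.45%, against 6.88% of filtered genes), and the share is near the background. Of the 46 relatives, 33 were below 0, and 29 after median centring, which also lowered the share of all named genes below 0 to 41.8%.

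The samples differed in genes of other cells and, by less, in pDC genes. All 18 pDC genes measured, among them Siglech, Tcf4 and Irf8, were past the filter, 13 were below 0 (9 under the alternative with the fewest) and none was 2-fold apart. Their log2 differences ran from -0.69 to 0.24, and Spib (-0.69) and Irf7 (-0.68) were 1.5-fold lower, about as far from equal as Nr4a1. Of 18 granulocyte genes, 17 were lower in Runx2-deficient pDCs, 15 of them by 2-fold or more (13 after median centring), with summed intensities of 3208 there and 19673 in wild-type. Platelet genes (7 of 8 lower, 2 by 2-fold or more) summed to 2521 in Runx2-deficient pDCs and 7642 in wild-type pDCs. Most of that gap came from 1 gene, Ppbp, at 156 units in Runx2-deficient and 4838 in wild-type pDCs. Erythroid genes (10 of 11 lower, 4 by 2-fold or more) summed to 5988 in Runx2-deficient and 6448 in wild-type pDCs. The transferrin receptor gene Tfrc, which other cells also express, was higher in Runx2-deficient pDCs, and without it the erythroid sums were 1164 in Runx2-deficient and 2886 in wild-type pDCs. Monocyte and macrophage genes (4 of 11 lower) summed to 2483 in Runx2-deficient and 4230 in wild-type pDCs. Without Lyz2 and Ccr2, which were at least 2-fold lower, the other 9 summed to 1701 in Runx2-deficient and 1375 in wild-type pDCs. B cell genes (7 of 11 lower) summed to 4347 in Runx2-deficient and 3687 in wild-type pDCs. The higher sum came from Cd79b and Cd22. Cd79b, the largest value in both sums, was at 2397 units in Runx2-deficient and 2000 in wild-type pDCs. Cd22, at 755 units in Runx2-deficient and 257 in wild-type pDCs (2.94-fold higher), was the one B cell gene 2-fold apart. T cell genes (5 of 8 lower) summed to 1857 in Runx2-deficient and 1930 in wild-type pDCs, with Cd3d, Cd3e and Cd3g below the filter on both arrays. Within that list Thy1 was 2.78-fold lower and Lat 1.97-fold higher in Runx2-deficient pDCs. Conventional dendritic cell genes (5 of 10 lower) summed to 23034 in Runx2-deficient and 24024 in wild-type pDCs. These near-equal sums hold 2 genes that were 2-fold apart. Itgax was 5.39-fold lower and Ccr7 2.56-fold higher in Runx2-deficient pDCs. No probe set had an intensity of 0, so no marker was at 0. The Y-linked genes Eif2s3y, Uty and Kdm5d were 21.7-fold, 7.69-fold and 4.81-fold lower in the Runx2-deficient sample. Granulocytes and monocytes are also known to express Fos, Fosb, Klf2, Nr4a1 and Dusp1, and the part that other cells or donor sex have in the differences of the members was not tested. In RNA of sorted cells, fewer cells expressing a gene and less RNA per cell cannot be told apart. Runx2 was not analysed here, since no probe set was named for it alone, and the genotype was not checked on it.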

How the data were processed

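The deposited table holds 1 intensity per probe set and array for 35556 probe sets, on a linear scale from 15.3 to 20364. RMA was applied by the authors, per the submitters' processing notes; it corrects background, normalises between arrays and summarises probes, and it compresses the differences of dim probe sets. Its software, its version and the arrays it was run on together were not given in the sources used here. No detection call is given. Column medians were 182 in the Runx2-deficient and 183 in the wild-type sample, and the number of arrays limits the precision.

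Differences are log2 of the Runx2-deficient intensity minus log2 of the wild-type intensity. Probe sets with exactly 1 symbol in the platform annotation were named (21789, with 1621 carrying several and 12146 none), of which 21698 matched the RefSeq gene table by identifier. Where a gene had several, the one with the highest mean was used. "Filtered genes" are those at or above the median of named genes on at least 1 array. Counts use 2-fold and 1.5-fold thresholds with no test. Promoters came from RefSeq (GRCm38), 12 for 8 of the 10 members. The members, lists, motifs and rules were chosen with earlier results of these data known. Named genes were the members, genes of each related list that were 2-fold apart or among the 3 furthest from 0 in each direction, and set markers. Others were named after their values were seen. Among them were Klf4, Klf6, Spib, Irf7, Tfrc, Lyz2, Ccr2, Itgax, Ccr7, Thy1, Lat and Cd22. The same holds for single phosphatase, FOS, JUN, BATF, MAF, ELK, CREB and ATF genes, and the Y-linked genes. Alternatives were median centring, quantile normalisation, a loess correction (span 0.3) and averaging all probe sets of a gene. The calculation was tested on simulated data. Software was statsmodels 0.14.6 (loess), pandas 2.3.3 and numpy 2.4.6 under Python 3.11.15, with plots from matplotlib 3.10.9.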

Additional observations from a re-analysis of the deposited data

How the results depend on the processing

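The 10 members' log2 differences kept their sign under median centring, quantile normalisation, loess correction and averaging all probe sets of a gene. None of these 40 values moved by more than 0.080. Each member has 1 probe set, so averaging could not change it, and median centring shifted all 10 by the same amount. At 1.5-fold, 4 members were apart in place of 1 at 2-fold. The number at 2-fold stayed at 1 under the 4 alternatives, but under quantile normalisation that gene was Klf2 (-1.01) and not Egr1 (0.97). The median over the members ran from -0.038 to 0.045 under the 4 alternatives, and leaving out 1 member at a time gave -0.11 to 0.047, so it has no settled sign. Of all filtered genes 1.96% were 2-fold apart in either direction, against 1.08% of all named genes without the filter and 6.88% of filtered genes at 1.5-fold. Among 218 related genes, 0 that were 2-fold apart changed sign, and 4 values crossed the 2-fold line. These were Ctsg, Mmp9 and Lat under median centring and Mmp9 under loess correction. The signs by list were counted after the values were seen. No paired analysis was possible because each group has 1 array. With 1 array per genotype, how far these differences would repeat is unknown.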

Other observations

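The kinases and factors upstream of the immediate-early genes had a median absolute log2 difference of 0.26 over 24 genes, against 0.18 for all filtered genes, and lay on both sides of equal. Srf, the gene of serum response factor, was at log2 8.92 in the Runx2-deficient sample and 9.43 in wild-type, a difference of -0.51, and its partners Elk1 and Elk3 were at -0.40 and -0.33, with Elk4 at 0.082. The CREB and ATF genes had 3 of 4 above 0, with Atf2 at 0.34, Creb1 at 0.28 and Atf1 at 0.20 against Crem at -0.14. Both groupings were made after the values were seen, and none of their genes was 1.5-fold apart. Of all named genes, 56.7% were below 0. Of the upstream genes, Map2k6, which activates p38, was the one 1.5-fold apart, at log2 9.24 in the Runx2-deficient sample and 8.45 in wild-type (1.73-fold higher). Map2k1 and Map2k2, the kinases above ERK, were at 0.35 and -0.35.

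Heat-shock genes, which often accompany immediate-early genes after cell handling, had a median of 0.055 over 14 measured genes. Hspa1a, an inducible HSP70 gene, was at 1437 units in Runx2-deficient pDCs and 678 in wild-type, 2.12-fold higher, and its close copy Hspa1b has no probe set of its own name, so signal of the pair on this probe set may be mixed. Other genes of the list differed by less, with Dnaja1 at 0.29, Hsph1 at 0.22 and Dnajb1 at 0.15, while Bag3 and Hsp90aa1 were at -0.38 and -0.32. The difference in Hspa1a was not matched in size by any other measured gene of that list.

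The EGR site found before Klf2, Fosb and Nr4a1 was also looked up over all genes. Over 468 filtered genes with that site in at least 1 promoter, the median log2 difference was -0.011, with 5.77% at least 1.5-fold lower and 3.42% at least 1.5-fold higher. Without the 3 members that prompted the search, the median was -0.0084, with 5.16% lower and 3.44% higher. The CArG box (106 genes) went with 5.66% lower and 1.89% higher, and the MEF2 site, in 29 genes, with 10.3% lower and 3.45% higher. The MEF2 shares rest on 3 lower genes and 1 higher gene, and the member Klf2 is among those 3. Over all 8322 filtered genes with a promoter, the median was -0.014, with 3.62% lower and 2.85% higher.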
